A study of Marchantia polymorpha with 9 samples.

Results

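The genes described here were low in wild-type thalli of the liverwort Marchantia polymorpha. They were higher in both lines that constitutively expressed the basic helix-loop-helix (bHLH) transcription factor MpBHLH12. They were chosen by their values. A gene was taken when its Tak-1 average was under 1 FPKM (fragments counted per unit of gene length and per unit of library size) and its log2((line + 1)/(Tak-1 + 1)) was 1 or more in both MpBHLH12ox#3 and MpBHLH12ox#2. This gave 50 of the 19287 genes of the table, or 50 of the 6366 genes under 1 FPKM in Tak-1. They are called switched-on genes below, a name that stands for this rule only, since 46 of the 50 had a value above 0 in Tak-1.

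Both lines were made in the Tak-1 background and carry MpBHLH12 (named MpGL3 in the sample labels) fused to the yellow fluorescent protein Citrine under the constitutive 35S promoter. They are independent transformants. The reference is wild-type Tak-1, a male strain that received no transgene, so an effect of transformation cannot be told apart from an effect of MpBHLH12. All plants were 3 weeks old and received no treatment, and RNA came from pooled pieces of thallus, 9 a sample. By the labels each of the 3 groups has 3 biological replicates, but the authors' table holds only their average. Replicate spread and library depth are therefore unknown. Every difference below is a difference between averages with no replicate check, and no test was possible on them. The study made its own tests of the lines against Tak-1, which were not used here. MpBHLH12 itself (Mapoly0031s0161) averaged 474.6 FPKM in MpBHLH12ox#3 and 547.6 in MpBHLH12ox#2, against 20.3 in Tak-1, and FPKM does not separate the transgene from the endogenous copy. In these bulk samples, fewer cells that express a gene and less RNA of it per cell cannot be told apart.

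The thallus is the flat, haploid body of the liverwort, and it bears gemma cups in which clonal propagules form. The bHLH proteins of class IIIf, to which MpBHLH12 belongs, are best known from Arabidopsis thaliana, where they join MYB and WD40 repeat proteins in complexes that control flavonoid pigments, trichomes and root hairs. A gene that is near 0 in whole thalli can be silent in every cell or expressed in a few cells, and an average over thallus pieces does not distinguish these cases.

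Most switched-on genes reached low levels, and only a pair became abundant. The median level was 3.12 FPKM in MpBHLH12ox#3 and 3.13 in MpBHLH12ox#2, against 0.37 in Tak-1. Of all genes, 40.9% had a lower value than that median in MpBHLH12ox#3, and 41.3% in MpBHLH12ox#2. At least 2 FPKM in both lines was reached by 35 of the 50 genes, at least 5 FPKM by 10, and at least 20 FPKM by 2. In contrast, 20 genes stayed below 3 FPKM in both lines. Their log2 changes had a median of 1.56 in MpBHLH12ox#3 and of 1.45 in MpBHLH12ox#2, where all genes together had a median of 0. These levels and changes follow in part from the rule, because adding 1 to each value before taking the log means that no gene below 1 FPKM in a line can be counted. Among all genes, 1.08% were higher by 1 or more in both lines, and 1.05% were lower by as much. Among genes under 1 FPKM in Tak-1 the share was 0.785%. Since the rule used this contrast, nothing is read from that share.

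**Figure D1:**
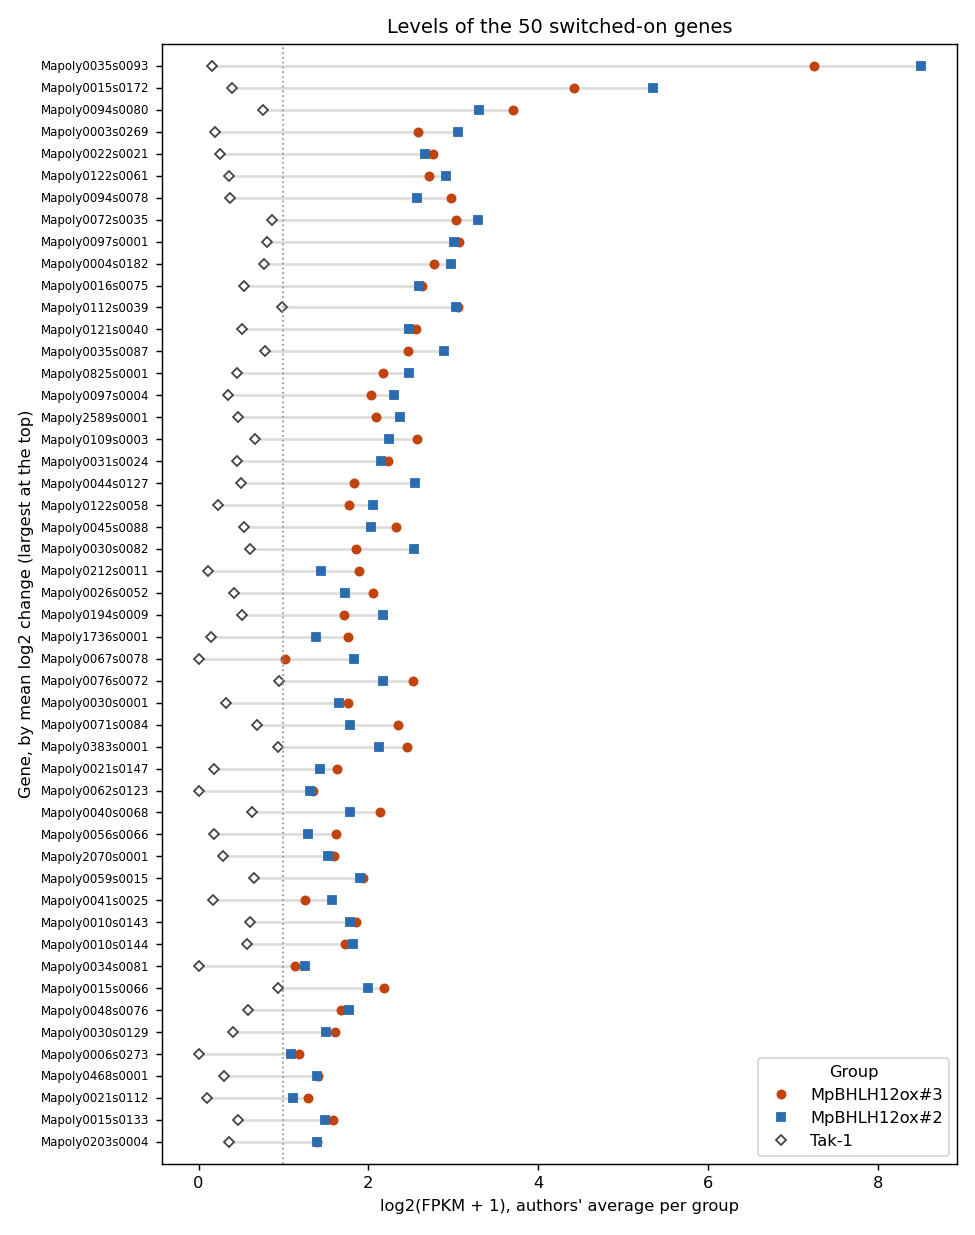
Levels of the 50 switched-on genes as log2(FPKM + 1), the authors' average per group, with MpBHLH12ox#3 as circles, MpBHLH12ox#2 as squares and Tak-1 as open diamonds, and a dotted line at 1 FPKM. All Tak-1 values lie left of the dotted line and all line values right of it, as the rule requires. Mapoly0035s0093, at the top, stands far above the others in both lines. Mapoly0015s0172, below it, does so in MpBHLH12ox#2. In MpBHLH12ox#3 it is closer to the next gene, Mapoly0094s0080 (20.5 against 12.0 FPKM).

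Mapoly0035s0093 had 151.3 FPKM in MpBHLH12ox#3 and 364.4 in MpBHLH12ox#2, against 0.11 in Tak-1. It alone made up 44.0% of the summed FPKM of the 50 genes in MpBHLH12ox#3 and 63.2% in MpBHLH12ox#2. Mapoly0015s0172 had 20.5 FPKM in MpBHLH12ox#3 and 39.8 in MpBHLH12ox#2, against 0.32 in Tak-1. On the log2 scale it was 4.03 above Tak-1 in MpBHLH12ox#3 and 4.95 in MpBHLH12ox#2, where Mapoly0035s0093 was 7.10 and 8.36 above it in the same lines. Both genes were lower in MpBHLH12ox#3 than in MpBHLH12ox#2. The sources used here give no annotation for either gene. The remaining 48 genes reached at most 12.0 FPKM in MpBHLH12ox#3 and 8.86 in MpBHLH12ox#2.

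A second tier of genes had a mean log2 change of the lines of 2 or more, at 4 to 12 FPKM. It was led by Mapoly0094s0080, with 12.0 FPKM in MpBHLH12ox#3 and 8.86 in MpBHLH12ox#2, against 0.69 in Tak-1. Its neighbour Mapoly0094s0078 had 6.88 FPKM in MpBHLH12ox#3 and 4.96 in MpBHLH12ox#2, against 0.30 in Tak-1. These were the only members of the tier that were higher by over 0.2 on the log2 scale in MpBHLH12ox#3 than in MpBHLH12ox#2. Mapoly0022s0021 stood at 5.79 FPKM in MpBHLH12ox#3 and 5.36 in MpBHLH12ox#2, against 0.19 in Tak-1. For Mapoly0122s0061 the averages were 5.59 FPKM in MpBHLH12ox#3 and 6.56 in MpBHLH12ox#2, against 0.29 in Tak-1. Mapoly0072s0035 reached 7.18 FPKM in MpBHLH12ox#3 and 8.83 in MpBHLH12ox#2, against 0.83 in Tak-1. Each of these 3 genes differed by less than 0.3 on the log2 scale between the lines. The tier also held Mapoly0097s0001 (7.37 and 7.07 FPKM in MpBHLH12ox#3 and MpBHLH12ox#2, against 0.75 in Tak-1) and Mapoly0016s0075 (5.21 and 5.07 FPKM in the same lines, against 0.45 in Tak-1). Mapoly0112s0039 (7.33 and 7.20 FPKM in these lines) had the highest Tak-1 level of all 50 genes, at 0.97 FPKM. Mapoly0121s0040 (4.88 and 4.59 FPKM in the lines, against 0.43 in Tak-1) closed the tier.

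The other members of this tier could be named by function. Mapoly0003s0269 is annotated as a sugar efflux transporter related to MtN3, the family known as SWEET in flowering plants, whose proteins let sugars pass down their gradient across membranes. It had 5.00 FPKM in MpBHLH12ox#3 and 7.29 in MpBHLH12ox#2, against 0.15 in Tak-1. It was the only gene with this domain in the part of the annotation that was held, which covered 1933 of the 19287 genes and 2 of the 50 switched-on genes. Mapoly0004s0182 is annotated as a cytochrome P450 of the CYP2 group, a heme enzyme that adds an oxygen atom to its substrate. It had 5.86 FPKM in MpBHLH12ox#3 and 6.88 in MpBHLH12ox#2, against 0.705 in Tak-1. Of 13 P450 genes in the same part of the annotation, 5 were under 1 FPKM in Tak-1, and Mapoly0004s0182 was the single one of these that passed the rule. Both annotation terms were picked with these values in view. The highest of the other 4 P450 genes in either line was Mapoly0001s0122, with 0.19 FPKM in MpBHLH12ox#3 and 0.50 in MpBHLH12ox#2, against 0.43 in Tak-1.

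Mapoly0041s0025 is named as a qRT-PCR target in the primer list of the study, which gives no function for it. It had 1.39 FPKM in MpBHLH12ox#3 and 1.98 in MpBHLH12ox#2, against 0.13 in Tak-1. Among the 7 genes of that list examined here, it was the only one under 1 FPKM in Tak-1. Shikimate and phenylpropanoid enzymes, of which the study names 82 genes, make the precursors of flavonoids and other phenolics. Of these, 10 were higher by 1 or more in both lines, where 1.08% of all genes were, and all 10 had at least 1 FPKM in Tak-1. They include Mapoly0070s0062, Mapoly0070s0063 and Mapoly0070s0064, which are consecutive on their scaffold. A single listed gene was lower by as much, Mapoly0047s0001, with 1.22 FPKM in MpBHLH12ox#3 and 0.88 in MpBHLH12ox#2, against 26.6 in Tak-1. The 8 listed genes under 1 FPKM in Tak-1 included 0 switched-on genes, too few genes to read against the share of 0.785% among all genes so low in Tak-1. The highest value of the 8 in either line was 0.76 FPKM. For the 74 listed genes that reached 1 FPKM in a group, the mean log2 change of the lines had a median of 0.27, against 0.01 for all 13324 genes that did so. Among the 12 bHLH genes of M. polymorpha in the phylogeny of the study, MpBHLH12 included, 3 were under 1 FPKM in Tak-1 and 0 were switched on. The Y chromosome scaffolds of this male strain carried 113 genes of the table, of which 78 were under 1 FPKM in Tak-1 and 0 were switched on. At the same share of 0.785%, nothing is read from these counts of 0 either.

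At the bottom of the range, 4 genes were listed at 0 in Tak-1, so no fold can be given. Mapoly0067s0078 had 1.03 FPKM in MpBHLH12ox#3 and 2.55 in MpBHLH12ox#2. Mapoly0062s0123 had 1.54 FPKM in MpBHLH12ox#3 and 1.49 in MpBHLH12ox#2. Mapoly0034s0081 was at 1.20 and 1.38 FPKM in MpBHLH12ox#3 and MpBHLH12ox#2, and Mapoly0006s0273 was at 1.27 and 1.13 FPKM in these lines. All 4 stayed under 3 FPKM in both lines. In Tak-1, 1978 genes of the table were listed at 0, and in MpBHLH12ox#3 and MpBHLH12ox#2 1982 and 2033. A further 2 members were under 0.1 FPKM in Tak-1. Mapoly0021s0112 had 1.44 FPKM in MpBHLH12ox#3 and 1.17 in MpBHLH12ox#2, against 0.069 in Tak-1. Mapoly0212s0011 had 2.69 FPKM in MpBHLH12ox#3 and 1.73 in MpBHLH12ox#2, against 0.077 in Tak-1. At the other end, 4 members had 0.9 FPKM or more in Tak-1, among them Mapoly0076s0072, with 4.76 FPKM in MpBHLH12ox#3 and 3.49 in MpBHLH12ox#2, against 0.93 in Tak-1.

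The thresholds cut through a continuous range of values. Just inside the size limit were Mapoly0021s0112, Mapoly0067s0078 and Mapoly0015s0133, whose smaller log2 change of the 2 lines was 1.02, 1.02 and 1.03. Just outside were Mapoly0036s0023, Mapoly0050s0001 and Mapoly0077s0043, at 0.98, 0.97 and 0.97. The last of these had 5.76 FPKM in MpBHLH12ox#3 and 2.72 in MpBHLH12ox#2, against 0.90 in Tak-1, and so was higher in MpBHLH12ox#3 than most members. On the Tak-1 limit, Mapoly0112s0039, Mapoly0076s0072 and Mapoly0015s0066 lay just inside, at 0.97, 0.93 and 0.92 FPKM. Mapoly0016s0185, Mapoly0014s0170 and Mapoly0155s0011 lay just outside, at 1.01, 1.11 and 1.14 FPKM. The last of these had 7.62 FPKM in MpBHLH12ox#3 and 9.81 in MpBHLH12ox#2. Of the members named here and not elsewhere, Mapoly0015s0133 had 2.00 FPKM in MpBHLH12ox#3 and 1.81 in MpBHLH12ox#2, against 0.38 in Tak-1, and Mapoly0015s0066 had 3.55 FPKM in MpBHLH12ox#3 and 2.98 in MpBHLH12ox#2.

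Among genes under 1 FPKM in Tak-1, 20 passed a log2 change of 1 in MpBHLH12ox#3 only and 14 in MpBHLH12ox#2 only. The share past 1 was 1.1% in MpBHLH12ox#3 and 1.01% in MpBHLH12ox#2. In the other line, 9 of the 20 and 9 of the 14 were at 0.5 or more, and the rest of these 34 genes were lower. The median log2 change in the other line was 0.46 for the 20 genes and 0.71 for the 14. Among the rest were genes that differed clearly between the averages. Mapoly2364s0001 had 0.80 FPKM in MpBHLH12ox#3 and 7.53 in MpBHLH12ox#2, against 0.68 in Tak-1. Mapoly0044s0099 had 3.41 FPKM in MpBHLH12ox#3 and 0.30 in MpBHLH12ox#2, against 0.15 in Tak-1. Each was therefore near its Tak-1 level in one of the lines.

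**Figure D2:**
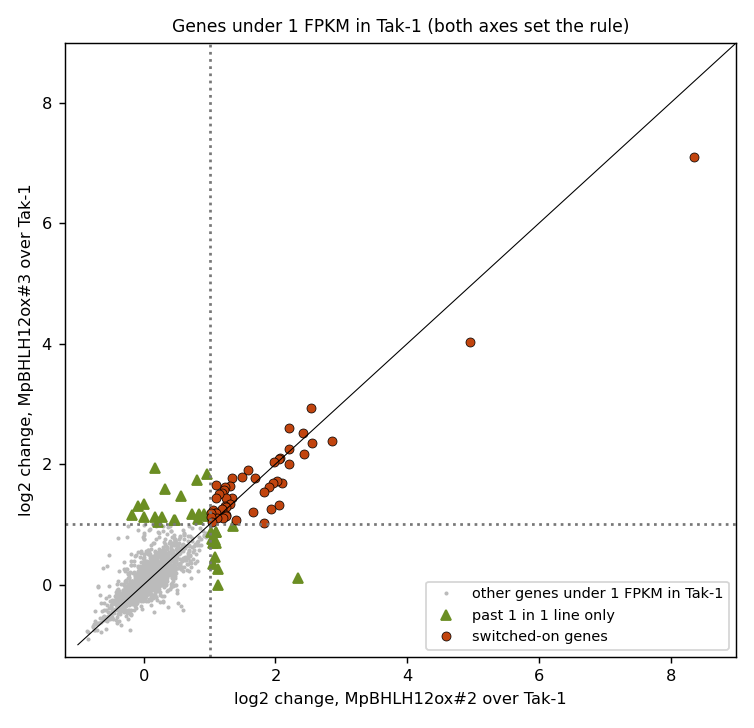
Log2 change over Tak-1 of the genes under 1 FPKM in Tak-1, MpBHLH12ox#2 on the horizontal and MpBHLH12ox#3 on the vertical axis, with switched-on genes as circles, the 34 genes past 1 in 1 line only as triangles, other genes as dots, the limits of 1 as dotted lines and equal change as a solid line. Both axes set the rule and share the Tak-1 average, and the plot shows that members continue the cloud of the other genes except for Mapoly0035s0093 and Mapoly0015s0172.

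The lines can also be compared with each other. The rule used the values of both lines and left out genes that passed 1 in 1 line only. The ratio of the lines is therefore not free of the rule, and it is given as a description. The log2 ratio of MpBHLH12ox#3 to MpBHLH12ox#2 had a median of 0.05 over the 50 genes, 31 of which were higher in MpBHLH12ox#3 and 19 lower. The median ratio was 0.01 over the other 12787 genes with 1 FPKM or more in both lines, of which 53.4% were higher in MpBHLH12ox#3. The median distance between the lines was larger for switched-on genes than for genes of like level, but close to that of other genes higher in both lines. The median size of the ratio, leaving its sign aside, was 0.27 for the 50 genes and 0.10 for 5190 other genes within the level range of 48 members, from 1.03 to 12.0 FPKM. The 50 genes include Mapoly0035s0093 and Mapoly0015s0172, which lay above that range. The lines were 0.5 or more apart in 12% of the switched-on genes (6 of 50) and in 3.1% of those 5190 genes. The 158 genes that were higher by 1 or more in both lines from at least 1 FPKM in Tak-1 had a median size of 0.26, and 15.8% of them were 0.5 or more apart. No test of these differences was possible with 1 average per line.

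The 6 genes 0.5 or more apart were mostly lower in MpBHLH12ox#3. The lowest ratios were -1.26 for Mapoly0035s0093, -0.92 for Mapoly0015s0172 and -0.81 for Mapoly0067s0078. Mapoly0044s0127 followed, with 2.55 FPKM in MpBHLH12ox#3 and 4.88 in MpBHLH12ox#2, against 0.41 in Tak-1. Mapoly0030s0082 had 2.62 FPKM in MpBHLH12ox#3 and 4.81 in MpBHLH12ox#2, against 0.52 in Tak-1. The highest ratio, 0.56, was that of Mapoly0071s0084, with 4.09 FPKM in MpBHLH12ox#3 and 2.45 in MpBHLH12ox#2, against 0.62 in Tak-1. Next came Mapoly0212s0011 (0.44) and Mapoly0094s0078 (0.40). The corresponding ratio of MpBHLH12 itself was -0.21. At the other extreme, 16 of the 50 genes were less than 0.1 apart, such as Mapoly0203s0004, with 1.63 FPKM in each line against 0.29 in Tak-1, and Mapoly0468s0001, with 1.65 FPKM in MpBHLH12ox#3 and 1.64 in MpBHLH12ox#2, against 0.23 in Tak-1.

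**Figure D3:**
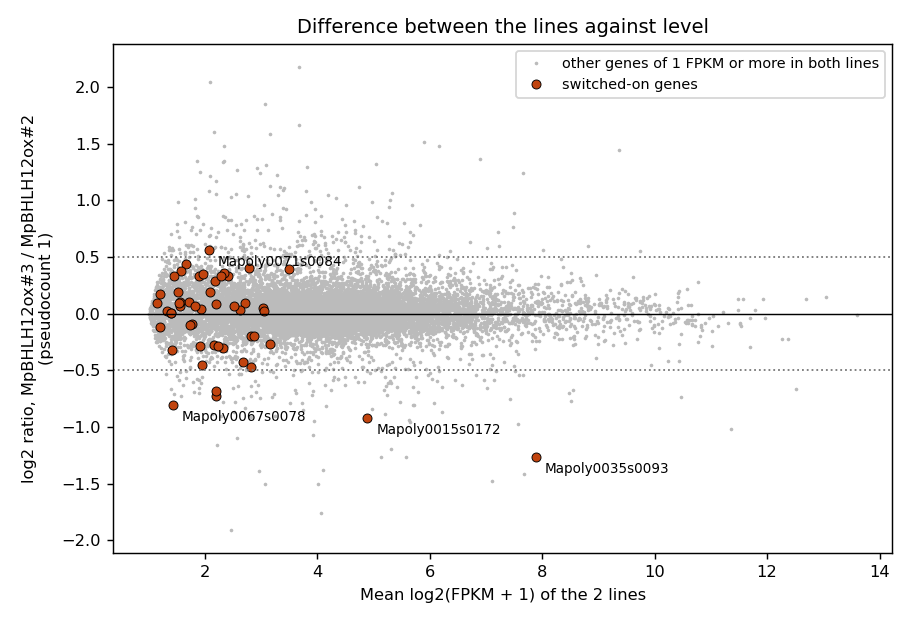
Log2 ratio of MpBHLH12ox#3 to MpBHLH12ox#2 (pseudocount 1) against the mean log2(FPKM + 1) of both lines, for the 50 switched-on genes (circles) and the other genes with 1 FPKM or more in both lines (dots), with dotted lines at 0.5 and -0.5. Of the circles, 6 lie beyond the dotted lines, 5 of them below, with Mapoly0035s0093 at -1.26.

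The genes were spread over 40 of the 763 scaffolds that have a gene in the table. A scaffold held 1 member in 32 cases, 2 members in 6 cases and 3 members in 2 cases, namely scaffolds 15 and 30. The identifiers number genes along each scaffold, which allowed neighbours to be examined. In total, 5 members were the sole gene of their scaffold and 1 lay on a scaffold of 2 genes. Thus 12% of the members were on scaffolds of 1 or 2 genes, compared with 4.6% of all genes under 1 FPKM in Tak-1. The 12% rests on 6 genes. The share was not computed for the other genes higher in both lines, so it is not read as particular to the members. The sole genes were Mapoly0825s0001, Mapoly2589s0001, Mapoly1736s0001, Mapoly2070s0001 and Mapoly0468s0001, and the highest of them in both lines was Mapoly0825s0001, with 3.52 FPKM in MpBHLH12ox#3 and 4.58 in MpBHLH12ox#2, against 0.37 in Tak-1. Mapoly1736s0001 (2.39 and 1.62 FPKM in MpBHLH12ox#3 and MpBHLH12ox#2, against 0.11 in Tak-1) and Mapoly2070s0001 (2.02 and 1.88 FPKM in these lines, against 0.22 in Tak-1) were lower. Mapoly0383s0001 shared its scaffold with a single gene that was listed at 0 in all groups, and had 4.49 FPKM in MpBHLH12ox#3 and 3.37 in MpBHLH12ox#2, against 0.91 in Tak-1.

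Of the 45 members with a gene next to them on the scaffold, 7 (15.6%) had a next neighbour that was also higher by 1 or more in both lines. The same held for 1.86% of all genes and for 2.05% of the other genes under 1 FPKM in Tak-1. The 158 genes that were higher by as much from 1 FPKM or more in Tak-1 included 147 with a next gene. The share was 24.5% of these. Within 5 numbers the count was 17 of 45 (37.8%), against 7.67% of all genes and 34.0% of those 147. Members are higher by the rule and were counted here as neighbours of each other. With members left out as neighbours the count was 13 of 45, against 1145 of 18863 genes and 43 of those 147. The count of 7 rested in large part on 3 scaffolds. Without the members on scaffolds 10, 35 and 97 it was 3 of 39 (7.69%). A next neighbour that was lower by 1 or more in both lines was found for 1 member (2.22%). The share was 1.91% of all genes and 3.40% of those 147, so nothing is read from this count.

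The clearest run was on scaffold 10, where 5 consecutive genes were higher in both lines. Its inner genes were the members Mapoly0010s0143, with 2.63 FPKM in MpBHLH12ox#3 and 2.46 in MpBHLH12ox#2, against 0.52 in Tak-1, and Mapoly0010s0144, with 2.32 FPKM in MpBHLH12ox#3 and 2.53 in MpBHLH12ox#2, against 0.49 in Tak-1. They were flanked by genes of much higher level. Mapoly0010s0141 had 127.0 FPKM in MpBHLH12ox#3 and 105.6 in MpBHLH12ox#2, against 40.4 in Tak-1. Mapoly0010s0142 had 31.3 FPKM in each line, against 9.72 in Tak-1. Mapoly0010s0145 had 56.8 FPKM in MpBHLH12ox#3 and 68.7 in MpBHLH12ox#2, against 22.7 in Tak-1. The 5 genes had mean log2 changes between 1.20 and 1.59. With a pseudocount of 1 this scale understates the change of the 2 members, whose mean log2 changes were 2.08 for Mapoly0010s0143 and 2.09 for Mapoly0010s0144 with a pseudocount of 0.1. The next gene on either side was at or near 0 FPKM in all groups.

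A second run opened scaffold 97. After Mapoly0097s0001 and a gene below 1 FPKM in all groups came Mapoly0097s0003, with 9.5 FPKM in MpBHLH12ox#3 and 11.6 in MpBHLH12ox#2, against 1.79 in Tak-1. The member Mapoly0097s0004 followed, with 3.08 FPKM in MpBHLH12ox#3 and 3.94 in MpBHLH12ox#2, against 0.27 in Tak-1. Mapoly0097s0005 had 6.87 FPKM in MpBHLH12ox#3 and 7.54 in MpBHLH12ox#2, against 1.49 in Tak-1. Of the first 5 genes of this scaffold, 4 were thus higher by over 1.6 on the log2 scale in both lines, and those outside the member list missed it by their Tak-1 level.

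On scaffold 35, Mapoly0035s0093 lay beside Mapoly0035s0092, which had 49.4 FPKM in MpBHLH12ox#3 and 56.8 in MpBHLH12ox#2, against 5.65 in Tak-1. Mapoly0035s0092 differed little between the lines, unlike its neighbour. Mapoly0035s0090 had 14.1 FPKM in MpBHLH12ox#3 and 6.92 in MpBHLH12ox#2, against 1.83 in Tak-1, a ratio of the lines in the opposite direction. On the far side, the 7 genes that followed Mapoly0035s0093 were within 0.4 of Tak-1 on the log2 scale. The other member of this scaffold, Mapoly0035s0087, had 4.54 FPKM in MpBHLH12ox#3 and 6.43 in MpBHLH12ox#2, against 0.73 in Tak-1. It stood between genes that changed the other way. Mapoly0035s0086 had 9.65 FPKM in MpBHLH12ox#3 and 13.4 in MpBHLH12ox#2, against 42.1 in Tak-1. Mapoly0035s0088 had 9.77 FPKM in MpBHLH12ox#3 and 12.8 in MpBHLH12ox#2, against 41.4 in Tak-1.

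Other members had a single next neighbour that was higher by 1 or more in both lines. Next to the sugar transporter gene Mapoly0003s0269 lay Mapoly0003s0270, annotated as a mitochondrial carrier protein, which had 21.5 FPKM in MpBHLH12ox#3 and 24.5 in MpBHLH12ox#2, against 8.74 in Tak-1. Beside Mapoly0016s0075, Mapoly0016s0074 had 10.7 FPKM in MpBHLH12ox#3 and 18.2 in MpBHLH12ox#2, against 3.08 in Tak-1. Mapoly0045s0088 had 4.0 FPKM in MpBHLH12ox#3 and 3.1 in MpBHLH12ox#2, against 0.45 in Tak-1, and its neighbour Mapoly0045s0087 had 14.9 FPKM in MpBHLH12ox#3 and 14.6 in MpBHLH12ox#2, against 5.96 in Tak-1. Pairs of members with other genes between them were found at the end of scaffold 94 (Mapoly0094s0078 and Mapoly0094s0080) and on scaffold 122. On scaffold 122, Mapoly0122s0058 had 2.42 FPKM in MpBHLH12ox#3 and 3.16 in MpBHLH12ox#2, against 0.18 in Tak-1, and the genes between it and Mapoly0122s0061 stayed below 0.7 FPKM in all groups. Next to Mapoly0109s0003 (4.97 and 3.75 FPKM in MpBHLH12ox#3 and MpBHLH12ox#2, against 0.59 in Tak-1) lay Mapoly0109s0002, a pathway gene annotated as a UDP-glucosyl transferase, whose enzymes attach glucose to small molecules. It had 4.99 FPKM in MpBHLH12ox#3 and 6.19 in MpBHLH12ox#2, against 3.97 in Tak-1, and did not reach 1 on the log2 scale.

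Further genes lay up to 5 numbers away. Near Mapoly0112s0039, Mapoly0112s0036 had 4.40 FPKM in MpBHLH12ox#3 and 5.06 in MpBHLH12ox#2, against 1.38 in Tak-1. Near Mapoly0071s0084, Mapoly0071s0080 had 9.92 FPKM in MpBHLH12ox#3 and 8.96 in MpBHLH12ox#2, against 3.87 in Tak-1. Near Mapoly0062s0123, Mapoly0062s0118 had 28.3 FPKM in MpBHLH12ox#3 and 26.0 in MpBHLH12ox#2, against 12.0 in Tak-1. In all 3 cases the neighbour was higher in both lines. So was, near Mapoly0203s0004, the gene Mapoly0203s0009, with 55.7 FPKM in MpBHLH12ox#3 and 84.8 in MpBHLH12ox#2, against 10.5 in Tak-1. Other neighbours were lower, and 8 members (17.8%) had such a gene within 5 numbers, against 8.03% of all genes. The share was 12.9% for the other genes higher by 1 or more in both lines. Mapoly0094s0076 and Mapoly0035s0088 were each counted for both members of their scaffold. Between Mapoly0203s0004 and Mapoly0203s0009, Mapoly0203s0007 had 1.19 FPKM in MpBHLH12ox#3 and 0.75 in MpBHLH12ox#2, against 10.3 in Tak-1. Near Mapoly0015s0133, Mapoly0015s0135 had 0.035 FPKM in MpBHLH12ox#3 and 0.25 in MpBHLH12ox#2, against 5.29 in Tak-1.

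**Figure D4:**
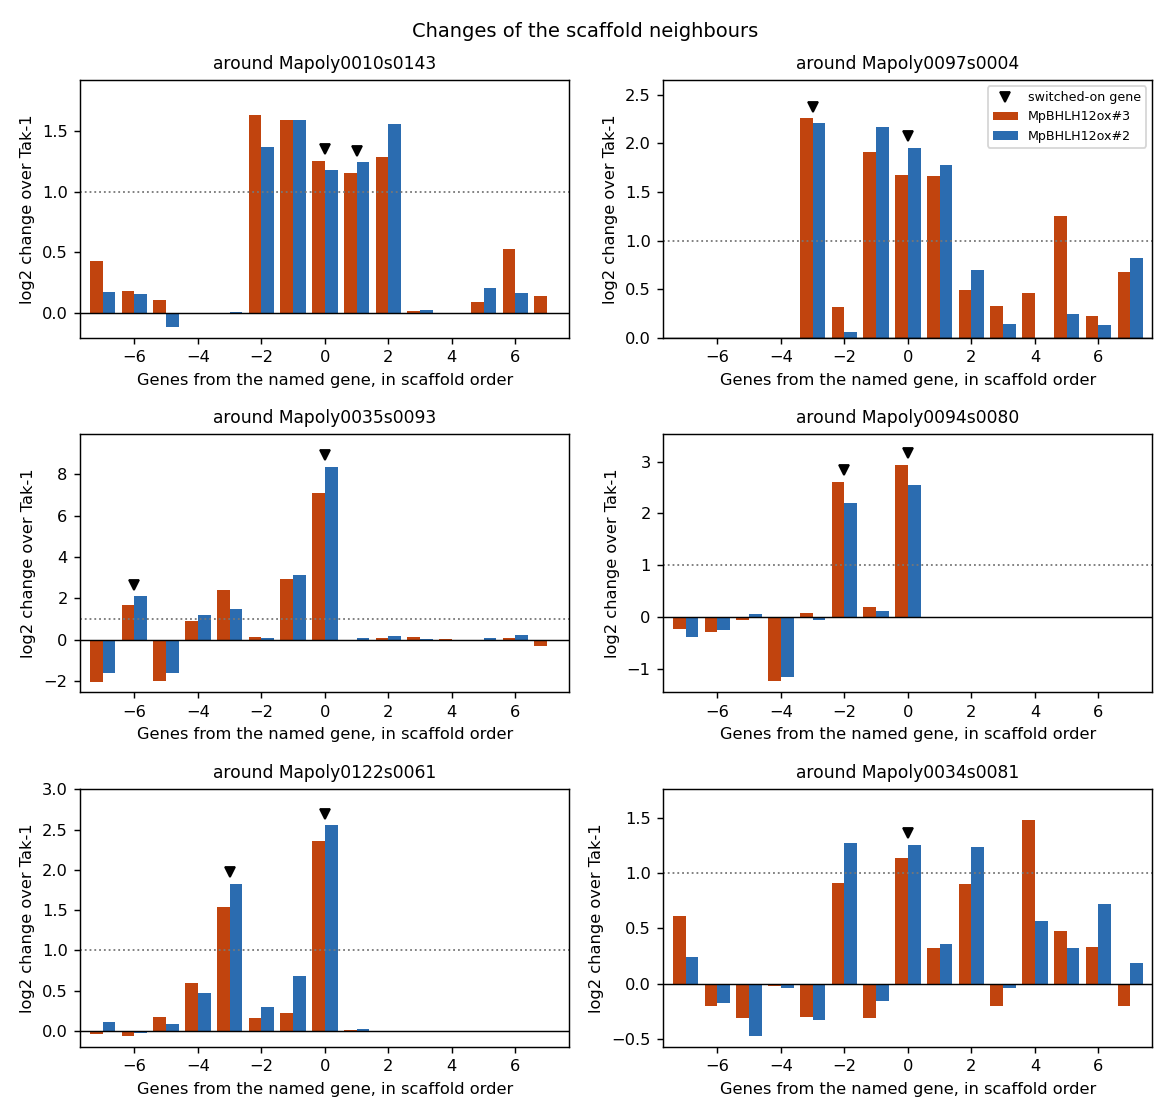
Log2 change over Tak-1 of the genes around 6 switched-on genes in scaffold order, MpBHLH12ox#3 and MpBHLH12ox#2 as adjacent bars, with triangles over switched-on genes and a dotted line at 1. Scaffold 10 shows 5 consecutive genes above 1 in both lines, scaffold 97 shows 4 of its first 5, and Mapoly0035s0087 stands between a pair of genes at about -2 to -1.6.

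Neighbours outside the rule were also examined together. There were 49 next neighbours that were not members and reached 1 FPKM in at least 1 group. The mean log2 change of the lines had a median of 0.24 over them, and 67.3% were higher than Tak-1 in both lines. The corresponding values for all 13324 genes that reached 1 FPKM were a median of 0.01 and 41.5%. Next neighbours of the 158 other genes higher by 1 or more in both lines, taken in the same way, had a median of 0.12, and 61.5% of 182 were higher in both lines. Over all neighbours of members within 2 numbers the median was 0.12, and within 5 it was 0.07. By single position it did not fall steadily, since it was 0.16 both 1 and 5 genes after a member. Without the filter on low values it was 0.09 over all 83 next neighbours, many of which were near 0 FPKM throughout. Without the members on scaffolds 10, 35 and 97 it was 0.17 over 42 genes.

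**Figure D5:**
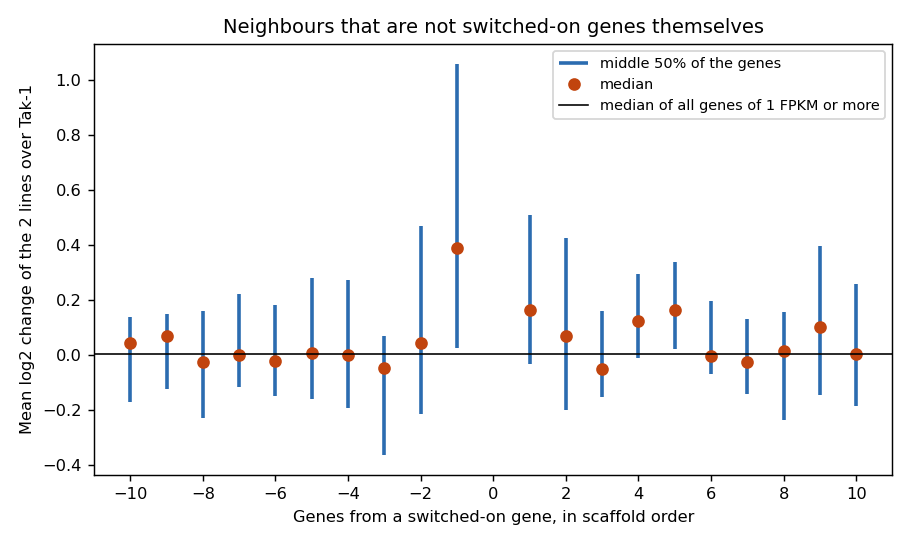
Mean log2 change of both lines over Tak-1 for neighbours that are not switched-on genes and reach 1 FPKM in at least 1 group, by the number of genes from a switched-on gene. Points are medians, bars span the middle 50% of the genes, and the line is the median of all such genes (0.01). The medians are 0.39 one gene before and 0.16 one gene after a switched-on gene, and between -0.05 and 0.16 elsewhere.

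The members not described so far had between 1.44 and 3.70 FPKM in the lines. Mapoly0031s0024 had 3.70 FPKM in MpBHLH12ox#3 and 3.43 in MpBHLH12ox#2, against 0.37 in Tak-1. Mapoly0026s0052 was at 3.17 FPKM in MpBHLH12ox#3 and 2.31 in MpBHLH12ox#2, against 0.33 in Tak-1. Mapoly0040s0068 was at 3.40 FPKM in MpBHLH12ox#3 and 2.44 in MpBHLH12ox#2, against 0.55 in Tak-1. Mapoly0056s0066 was at 2.07 and 1.44 FPKM in MpBHLH12ox#3 and MpBHLH12ox#2, against 0.14 in Tak-1. Mapoly0026s0052, Mapoly0040s0068 and Mapoly0056s0066 were higher by over 0.3 on the log2 scale in MpBHLH12ox#3 than in MpBHLH12ox#2. Mapoly0194s0009 went the other way, with 2.29 FPKM in MpBHLH12ox#3 and 3.50 in MpBHLH12ox#2, against 0.43 in Tak-1. Mapoly0021s0147, Mapoly0030s0001, Mapoly0030s0129, Mapoly0048s0076 and Mapoly0059s0015 had 2.04 to 2.85 FPKM in MpBHLH12ox#3 and 1.70 to 2.74 in MpBHLH12ox#2, against 0.14 to 0.58 in Tak-1. Their log2 ratio of MpBHLH12ox#3 to MpBHLH12ox#2 lay between -0.10 and 0.19.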

How the data were processed

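RNA-Seq was made from 9 samples of 3-week-old thalli. Per the study's methods, the authors used Bowtie2 for mapping to a JGI genome of M. polymorpha, HTSeq for counting and edgeR for their own comparisons, and the submitters' processing notes also name Cuffdiff 2.2.1 without its role. The deposited values are FPKM, averaged by the authors within each group (1 value a group) for 19287 genes. No source used here says how FPKM was computed. Depth, and so the precision of a value, is unknown. None of the identifiers matched the reference gene table of assembly MpTak2_v7.1 (0 matches), so annotations came from the supplementary tables of the study, of which the annotation table was held for the first 1933 genes. The fold changes and adjusted significance values in those tables were not used.

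For each line, the change was log2(FPKM + 1) less the same quantity in Tak-1, which understates the change of low genes. Groups followed the labels, and no test was run because no replicate values were used. Any member could be named. Full values were due for the 10 largest changes, the 5 highest levels, the 3 highest and 3 lowest line ratios, genes at 0 in Tak-1, members with a raised gene or member within 5 numbers, listed or annotated members, and the 3 genes either side of each limit. Members and lists were chosen with earlier results of these data known. The alternatives were pseudocounts of 0.1 and 5, other limits, rescaled lines, a filter and wider neighbourhoods. The scripts were tested on simulated data. Python 3.11.15, numpy 2.4.6, pandas 2.3.3 and matplotlib 3.10.9 were used.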

Additional observations from a re-analysis of the deposited data

How the results depend on the processing

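The number of switched-on genes was 50. Adding 0.1 in place of 1 before the log gave 226 genes and adding 5 gave 7. A size limit of 0.5 gave 135 genes and one of 2 gave 12. The rule's own construction moves these counts. Limits of 0.5 and 2 FPKM in Tak-1 gave 35 and 73, a minimum of 2 FPKM in both lines gave 35, and rescaling the lines to a median ratio of 0 kept the same 50 genes. The median log2 change of the 50 genes in MpBHLH12ox#3, 1.56, was 2.90 when 0.1 was added and 0.60 when 5 was added. In MpBHLH12ox#2 the median of 1.45 was 2.98 and 0.54 in the same order, and 1.94 over the genes with 2 FPKM or more in both lines. The count of members beside a gene higher by 1 or more in both lines, 7, was 17 within 5 numbers, and 3 without scaffolds 10, 35 and 97, a setting chosen after seeing the data. The median line ratio stayed between 0.02 and 0.06. No paired analysis was possible because replicate values were averaged within each group. Leaving out single replicates was not run, since it needs the same values.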

Other observations

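Some switched-on genes lay among genes whose averages were close to each other in all 3 groups, noticed after the values were seen. On scaffold 34, Mapoly0034s0081 stood between Mapoly0034s0079, with 16.1 FPKM in MpBHLH12ox#3 and 20.9 in MpBHLH12ox#2, against 8.09 in Tak-1, and Mapoly0034s0083, with 15.9 FPKM in MpBHLH12ox#3 and 20.3 in MpBHLH12ox#2, against 8.03 in Tak-1. Mapoly0034s0080 (4.71 and 5.34 FPKM in MpBHLH12ox#3 and MpBHLH12ox#2, against 6.06 in Tak-1) and Mapoly0034s0084 (4.87 and 5.56 FPKM in the same lines, against 5.74 in Tak-1) formed a like pair. The genes on either side of Mapoly0035s0087 formed another. Among the members themselves, Mapoly0825s0001, Mapoly2589s0001 and Mapoly0097s0004 had close averages. Mapoly2589s0001 had 3.26 FPKM in MpBHLH12ox#3 and 4.18 in MpBHLH12ox#2, against 0.38 in Tak-1, and differed from each of the others by less than 0.15 on the log2(FPKM + 1) scale in every group. Such closeness was not particular to these genes, since many other pairs of members were within 0.15 too. They included the adjacent Mapoly0010s0143 and Mapoly0010s0144 (at most 0.13 apart), and, on different scaffolds, Mapoly0016s0075 and Mapoly0121s0040 (at most 0.12). No sequence was used here, so whether such genes share reads was not tested, and their single values are uncertain to that extent.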
